A study of Mus musculus with 9 samples.

Results

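The genes described here were the collagens and the fibrous matrix genes that work with them, measured by RNA-seq in mouse brain after intracerebral hemorrhage (ICH). They were taken by name: every gene symbol made of Col, a number, a and a number, which gave 44 collagen chains, and 14 others, namely fibronectin (Fn1), fibrillin (Fbn1), lumican (Lum), decorin (Dcn), biglycan (Bgn), periostin (Postn), Sparc, the lysyl oxidases Lox and Loxl1 to Loxl4, Pcolce and Serpinh1. That made 58 genes of 55401 in the deposited table. The rule used names only, although it was set with earlier results of these data known. The study made 9 libraries from wildtype mice, adult C57BL males by its methods, in 3 groups of 3. The ICH+Laminaria libraries came from mice that received Laminaria after the hemorrhage, and their labels gave days 4, 5 and 6, a different day for each library. The ICH libraries came from mice that received the vehicle of Laminaria after the hemorrhage and were labelled day 3. The sham libraries, also day 3, came from mice that underwent needle insertion with no blood injected. ICH was made by injecting the animal's own whole blood into the basal ganglia, which models a hematoma without the rupture of a vessel, and tissue was labelled brain, basal ganglia. No dose or route of Laminaria was given in the sources used here. Because every ICH+Laminaria library had a later day than every other library, treatment and day cannot be told apart. The labelled days increase by 1 from library to library, and no source used here says whether they are the days of sampling, so below they only name the libraries. Neither the labels nor the methods said that each library was a separate mouse, so the spread between libraries may be partly technical.

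Collagens are triple helices of alpha chains that are hydroxylated and folded in the endoplasmic reticulum, secreted, trimmed by proteases and joined covalently by lysyl oxidases. Fibrillar types I, III and V build the fibers of scars, meninges and the adventitia of vessels, whereas type IV forms the sheet-like network of basement membranes around every brain capillary. The healthy brain parenchyma holds little fibrillar collagen, and after injury fibroblasts of the meninges and of the vessel wall are known to deposit it. Fibronectin is among the first matrix proteins laid down in a wound, both from plasma and from local cells.

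Library totals ran between 51307799 and 74649716 counts. Levels are given as FPKM, the deposited value per gene length and sequencing depth, and are listed by library in label order, which for ICH+Laminaria is the order of the labelled days 4, 5 and 6. Fold changes are on the log2 scale with their standard error (SE) and come from a count model fitted over every gene whose FPKM averaged 0.5 or more in the 6 libraries of a comparison. A gene was called at a Benjamini-Hochberg adjusted p under 0.05 over all genes tested. The markers of striatal neurons, the principal neurons of the basal ganglia, were all expressed, with summed levels of 772 to 1204 FPKM in ICH+Laminaria, 695 to 1028 FPKM in ICH and 987 to 1515 FPKM in sham. Markers of choroid plexus epithelium, the secretory lining of the ventricles, varied far more, at 58.6 to 1738 FPKM in ICH+Laminaria, 1327 to 3606 FPKM in ICH and 72.3 to 916 FPKM in sham. Of the 8 striatal markers all had lower fitted values in ICH than in sham (median log2 fold change −0.77) and 1 was called lower. The 8 microglia and macrophage markers were all called higher in ICH (median 2.33), as were 5 of 6 proliferation markers (median 3.06) and 3 of 6 astrocyte markers (median 0.62). Over all genes tested 7.42% were called higher and 3.16% lower. The part of these markers in the values of the matrix genes was not tested.

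RefSeq promoter sequence (build GRCm38.p6) was at hand for 42 of the 58 genes, and the 150 bases before the start site are shown for those of 4 genes that overlapped no annotated exon. Col3a1 and Bgn were called higher in ICH, and Serpinh1 encodes the collagen chaperone. Among the tested fibrillar chains, Col11a2 was the one with lower values in every ICH library than in every sham library. Capitals mark 3 short motifs searched on both strands: GGGCGG (the GC box), CCAAT and TATAAA, and where 2 matches overlap, as at the end of the Bgn window, the capitals run on. The windows are chr1:45311388-45311537, plus strand, for Col3a1, chrX:73483451-73483600, plus strand, for Bgn, chr7:99353240-99353389, minus strand, for Serpinh1, and chr17:34038988-34039137, plus strand, for Col11a2, each read 5′ to 3′ along the gene.
Col3a1: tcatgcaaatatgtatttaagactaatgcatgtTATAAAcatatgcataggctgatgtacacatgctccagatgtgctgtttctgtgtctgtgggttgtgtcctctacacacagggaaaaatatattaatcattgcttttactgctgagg
Bgn: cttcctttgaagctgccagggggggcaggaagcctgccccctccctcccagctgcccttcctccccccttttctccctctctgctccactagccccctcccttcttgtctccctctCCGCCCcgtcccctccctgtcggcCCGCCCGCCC
Serpinh1: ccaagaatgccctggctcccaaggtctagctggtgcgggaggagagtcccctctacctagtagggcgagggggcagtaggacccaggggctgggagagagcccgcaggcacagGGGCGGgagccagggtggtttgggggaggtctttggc
Col11a2: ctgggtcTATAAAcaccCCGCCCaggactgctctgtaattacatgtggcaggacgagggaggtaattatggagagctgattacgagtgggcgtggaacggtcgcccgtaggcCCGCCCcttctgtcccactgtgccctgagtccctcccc

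Over the 250 bases before the start site, the GC box was present for 26 of the 42 genes (61.9%), against 35.4% of all 27025 genes of the promoter table and 63.0% of the 11270 of them tested here. CCAAT was present for 13 of 42 (31.0%), against 37.5% of all genes and 40.0% of tested genes. TATAAA was present for 6 of 42 (14.3%), against 14.3% of all genes and 7.9% of tested genes. Of the 8 genes with a promoter that were called higher in ICH, 6 held the GC box (75.0%), 5 held CCAAT (62.5%) and 1 held TATAAA (12.5%). These shares were not tested, and the 42 genes include some that were too low to be tested for expression.

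Of the 58 genes, 35 passed the expression minimum for ICH against sham, 12 of them were called higher in ICH and 0 were called lower. Over all 16414 genes tested, 7.42% were called higher and 3.16% lower. The log2 fold change was positive for 32 of the 35, with a median of 0.88, beside a median of 0.01 over all genes tested. In 24 of the 35 the lowest ICH library exceeded the highest sham library, and 23.1% of all genes did so. In 1 of the 35, Col11a2, the highest ICH library was below the lowest sham library, as for 13.2% of all genes. Since 6 of the 35 reached the minimum with a sham mean below 0.5 FPKM, and so through their ICH level, the test was also run on all 58 genes with no minimum, which called 14 higher, beside 2.94% of all 31601 genes then tested, and 0 lower. Of the 12, Col4a5 lost its call there. The calls depended on single libraries. Without ICH library 2 or 3, or without sham library 1 or 2, 0 of the 34 to 36 members tested were called higher, and over all genes 0 to 2 were called in either direction. Without sham library 3 only Col18a1 and Loxl2 were called, and without ICH library 1 the number was 16. In these subsets 19 to 24 members were higher at an unadjusted p under 0.05, beside 12.3% to 18.1% of all genes in the same subsets. With all 6 libraries 23 members were, beside 17.2% of all genes. The sign of each of the 12 called genes held in every subset. Fn1 and Col4a5 lost their call with limma, and DESeq2 called all 12.

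**Figure D1:**
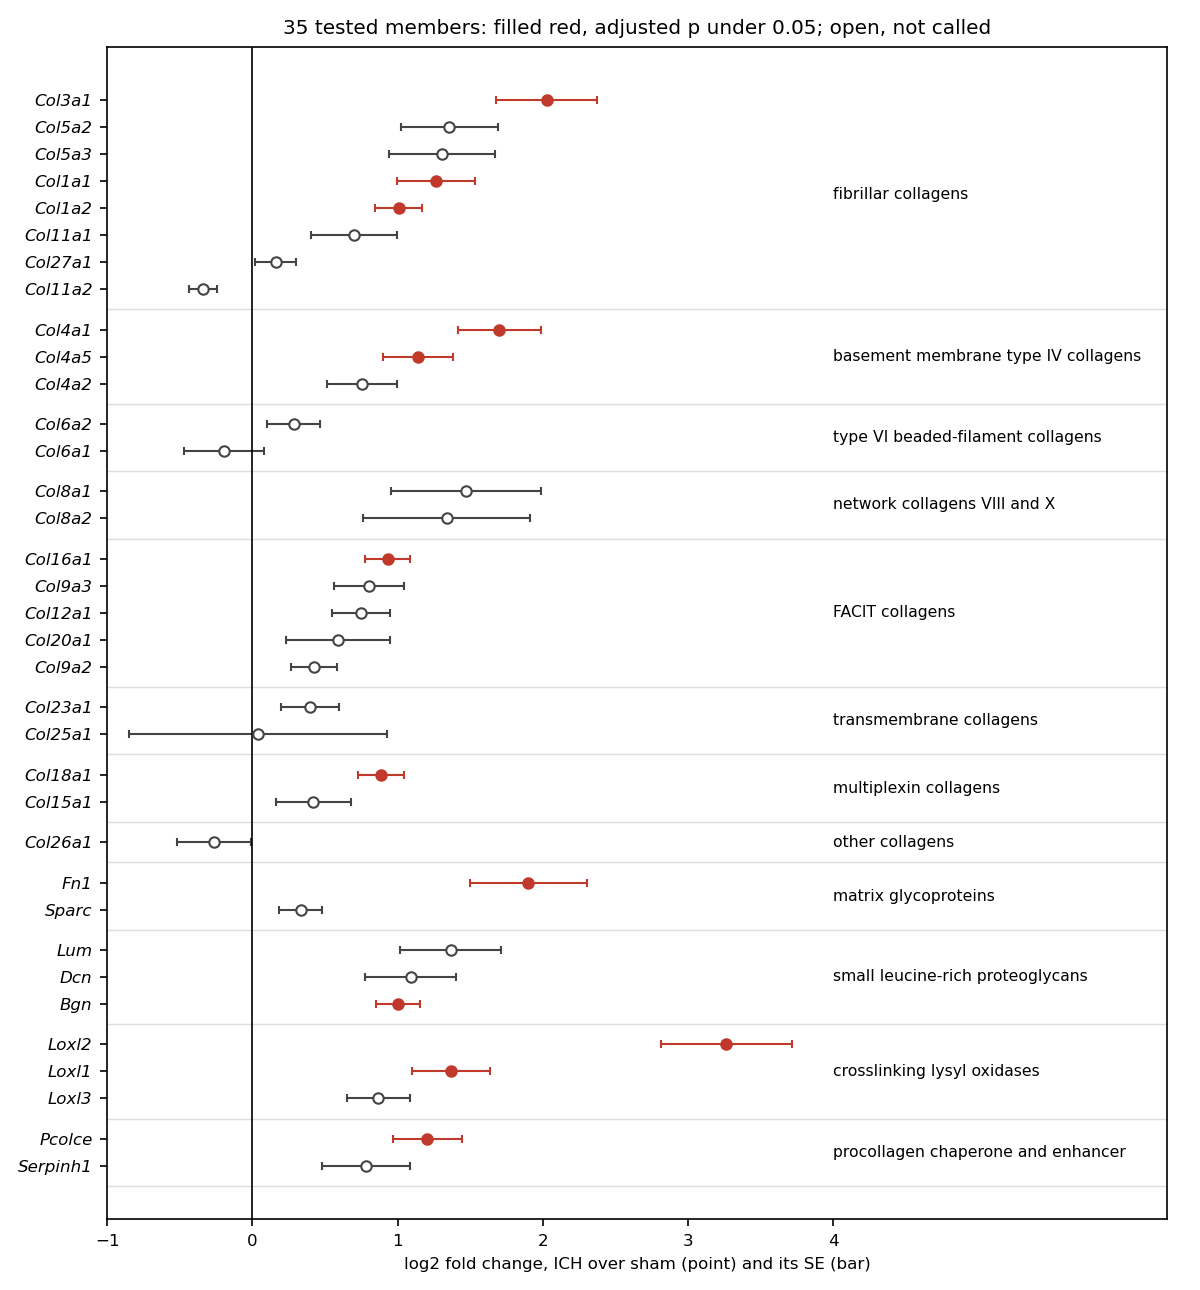
Log2 fold change of ICH over sham for the 35 tested members, 1 row each and grouped by role, with bars of 1 SE. The 12 called members (filled red) lie between 0.88 for Col18a1 and 3.26 for Loxl2, and Col11a2, Col26a1 and Col6a1 are the 3 members left of 0.

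Among the fibrillar collagens, the chains of types I and III were those called. Of 11 fibrillar chains 8 were tested, 3 were called higher in ICH and 0 lower, with a median log2 fold change of 1.14. Col3a1 (chr1:45311538-45349706, GRCm38), the single chain of type III collagen, had 0.480, 0.787 and 2.31 FPKM in the ICH+Laminaria libraries, 0.780, 1.70 and 1.86 FPKM in the ICH libraries and 0.358, 0.272 and 0.404 FPKM in the sham libraries. All ICH libraries were above all sham libraries, the lowest being ICH library 1, and the log2 fold change was 2.03 ± 0.35 (adjusted p = 0.0249). Its promoter, shown above, held TATAAA at 117 bases before the start and neither of the other motifs in the printed window.

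Col1a1 (chr11:94936224-94953042), which encodes the alpha 1 chain of type I collagen, had 1.83, 1.68 and 4.60 FPKM in ICH+Laminaria, 2.13, 2.79 and 3.79 FPKM in ICH and 1.52, 0.992 and 1.0 FPKM in sham. Col1a2 (chr6:4504814-4541544), which encodes the alpha 2 chain of the same heterotrimer, had 1.48, 1.21 and 3.64 FPKM in ICH+Laminaria, 1.75, 2.30 and 2.56 FPKM in ICH and 1.16, 1.04 and 0.995 FPKM in sham. For both chains no ICH library overlapped a sham library, and sham library 1 was the highest of its group. The log2 fold changes of ICH over sham were 1.27 ± 0.27 for Col1a1 (adjusted p = 0.0356) and 1.01 ± 0.16 for Col1a2 (adjusted p = 0.0226). Type I collagen has 2 alpha 1 chains for each alpha 2 chain. The ratio of Col1a1 to Col1a2 levels was 1.3 ± 0.08 in ICH+Laminaria, 1.3 ± 0.16 in ICH and 1.09 ± 0.19 in sham (SD, n = 3 each), and in an exact two-sided permutation test of ICH against sham p was 0.3, where 0.1 is the smallest p that 3 against 3 libraries allow.

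Type V collagen chains, which nucleate type I fibrils, were on the edge of the threshold. Col5a2 averaged 0.67 ± 0.42 FPKM in ICH+Laminaria, 0.83 ± 0.33 FPKM in ICH and 0.32 ± 0.03 FPKM in sham, with a log2 fold change of ICH over sham of 1.36 ± 0.34 and an adjusted p that rounded to 0.05 from above. Col5a3 averaged 1.58 ± 1.17 FPKM in ICH+Laminaria, 1.41 ± 0.65 FPKM in ICH and 0.56 ± 0.05 FPKM in sham, with a log2 fold change of 1.3 ± 0.37 and an adjusted p of 0.0687. Both had all ICH libraries above all sham libraries and neither was called. Col5a1, the remaining type V chain, was below the expression minimum at 0.75 ± 0.40 FPKM in ICH+Laminaria, 0.60 ± 0.16 FPKM in ICH and 0.33 ± 0.05 FPKM in sham, and with edgeR's own count filter it was not called (0.78 ± 0.25, adjusted p = 0.104), with its ICH libraries above its sham libraries. Col11a2, a chain of type XI collagen best known from cartilage, went the other way: its levels averaged 3.21 ± 0.30 FPKM in ICH+Laminaria, 3.26 ± 0.18 FPKM in ICH and 4.01 ± 0.23 FPKM in sham, and its log2 fold change of −0.34 ± 0.10 was not called (adjusted p = 0.0678). Col11a1 and Col27a1 were not called either, at 0.70 ± 0.30 and 0.16 ± 0.14.

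Fibroblast markers were set beside these chains. Of 10 such markers 4 were tested in ICH against sham (median log2 fold change 0.79). Of these 3 were called higher, Foxc1, Gjb2 and Islr, beside 7.42% of all genes tested. The summed level of the 10 was 9.68 to 31.4 FPKM in ICH+Laminaria, 14 to 16.7 FPKM in ICH and 6.49 to 8.93 FPKM in sham. Dpt and Bnc2, both fibroblast markers, stayed at or below 0.292 FPKM in every library. Dpt had 0.035, 0.050 and 0.052 FPKM in ICH and 0.115, 0.088 and 0 FPKM in sham. Bnc2 had 0.036, 0.022 and 0.064 FPKM in ICH and 0.053, 0 and 0 FPKM in sham. The other untested markers were Pi16, Osr1, Slc47a1 and Foxd1. Pi16 had 0.384, 0.44 and 0.218 FPKM in ICH and 0.173, 0.094 and 0.063 FPKM in sham. Osr1 had 0.47, 0.407 and 0.584 FPKM in ICH and 0.11, 0.242 and 0.072 FPKM in sham. Slc47a1 had 0.3, 0.318 and 0.469 FPKM in ICH and 0.132, 0.391 and 0.124 FPKM in sham. Foxd1 had 0.51, 0.271 and 0.342 FPKM in ICH and 0.299, 0.231 and 0.123 FPKM in sham. In ICH+Laminaria against ICH the median log2 fold change was 0.45 for 6 tested fibroblast markers. For 9 tested fibrillar chains it was −0.02, and 0 of either list were called. The part of these markers in the collagen values was not tested, and in bulk tissue more cells of a type and more RNA per cell cannot be told apart.

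Type IV collagen, the network of the vascular basement membrane, was the most abundant of the collagen groups after ICH, summing to 24.4 ± 6.50 FPKM in ICH+Laminaria, 25.8 ± 8.47 FPKM in ICH and 11.2 ± 1.23 FPKM in sham. Of its 6 chains 3 were tested and 2 were called higher in ICH. Col4a1 (chr8:11198423-11312826, minus strand) had 10.5, 8.19 and 12.3 FPKM in ICH+Laminaria, 7.13, 15.8 and 13.0 FPKM in ICH and 3.73, 3.07 and 3.96 FPKM in sham. Its lowest ICH library was above the highest sham library by a wide margin, and the log2 fold change was 1.70 ± 0.29 (adjusted p = 0.0234). Col4a2 (chr8:11312805-11449287, plus strand), its partner in the common heterotrimer, had 11.5, 8.73 and 16.7 FPKM in ICH+Laminaria, 8.03, 15.9 and 11.5 FPKM in ICH and 7.74, 6.08 and 6.55 FPKM in sham. Here ICH library 1 was barely above sham library 1, and the log2 fold change of 0.76 ± 0.24 was not called (adjusted p = 0.0923).

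The genes of this pair lie head to head and are transcribed away from each other, and in the deposited coordinates they overlap by 22 bases. The 30 bases that lie 48 to 19 bases before the RefSeq start of Col4a2, chr8:11312757-11312786 on the plus strand, are shown because they lie directly before the Col4a2 start and, on the other strand, inside the annotated Col4a1 gene. The stretch holds a GC box and a CCAAT motif (capitals).
Col4a2: CCGCCCgaggagctccCCAATttgttggcg

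The ratio of both levels was also taken within each library. Col4a1 over Col4a2 was 0.911, 0.938 and 0.737 in ICH+Laminaria, 0.888, 0.999 and 1.13 in ICH and 0.481, 0.506 and 0.605 in sham. Each ICH and each ICH+Laminaria library was above each sham library. The exact two-sided permutation p was 0.1 for ICH against sham and 0.1 for ICH+Laminaria against sham, the smallest that 3 against 3 libraries allow, and 0.2 for both after adjustment over the 4 ratio tests. Whether reads were counted by strand was not stated in those sources, and reads in the overlap could belong to either gene.

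**Figure D2:**
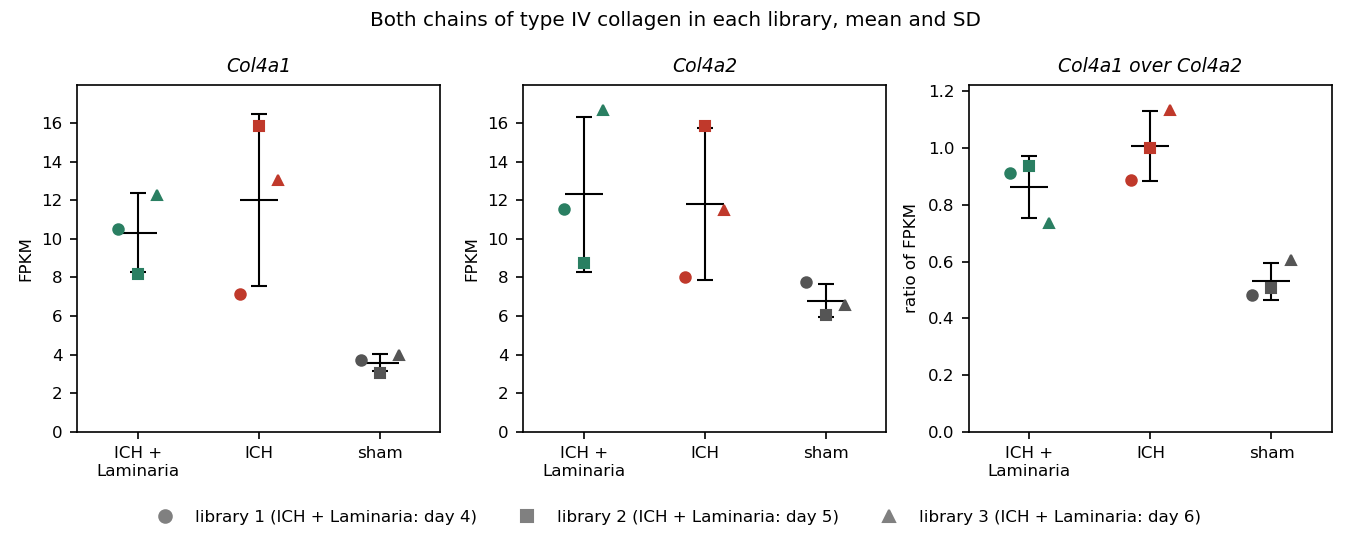
FPKM of Col4a1 and of Col4a2, and their ratio, in each library, with the mean and SD of each group of 3. Sham libraries have a ratio of 0.481 to 0.605, and all other libraries one of 0.737 to 1.13.

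Col4a5, an X-linked type IV chain, had 0.802, 0.965 and 1.27 FPKM in ICH+Laminaria, 0.911, 1.29 and 1.29 FPKM in ICH and 0.538, 0.390 and 0.611 FPKM in sham. No ICH library overlapped a sham library, and the log2 fold change was 1.14 ± 0.24 (adjusted p = 0.036). Its head-to-head neighbour Col4a6, with 1308 bases between them, was below the expression minimum. Its level averaged 0.41 ± 0.28 FPKM in ICH+Laminaria, 0.51 ± 0.14 FPKM in ICH and 0.14 ± 0.04 FPKM in sham. With edgeR's own count filter in place of the FPKM minimum, which kept 57 of the 58 genes, Col4a6 was called higher in ICH, at 1.79 ± 0.31 (adjusted p = 0.0277). That filter called 15 members higher, with 5.84% of all genes called higher. Col4a3 and Col4a4, a pair separated by 71 bases and known from kidney glomeruli, were low, Col4a3 averaging 0.14 FPKM in ICH and 0.07 FPKM in sham and Col4a4 0.18 FPKM in ICH and 0.07 FPKM in sham.

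Col18a1 (chr10:77052178-77166548) encodes the basement membrane collagen whose end fragment is endostatin. It had 2.07, 1.89 and 3.28 FPKM in ICH+Laminaria, 2.37, 2.84 and 2.36 FPKM in ICH and 1.32, 1.13 and 1.54 FPKM in sham. The groups ICH and sham were well apart, and the log2 fold change was 0.88 ± 0.16 (adjusted p = 0.0261). The related Col15a1 averaged 1.33 ± 0.34 FPKM in ICH+Laminaria, 1.40 ± 0.31 FPKM in ICH and 1.02 ± 0.26 FPKM in sham, its groups overlapped and it was not called.

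Other genes of the basement membrane were tested from a separate list of laminins, nidogens and heparan sulfate proteoglycans. Of its 15 genes 11 were tested, 4 were called higher in ICH and 0 lower, and the median log2 fold change was 0.48. The 3 with the largest change were Nid2, a nidogen that links laminin to type IV collagen, at 1.47 ± 0.21, Lama4, the laminin chain of endothelial basement membranes, at 1.22 ± 0.25, and Hspg2 (perlecan) at 1.11 ± 0.15. The adjusted p was 0.0222 for Nid2, 0.0335 for Lama4 and 0.0216 for Hspg2. Of vascular markers, 2 of 8 endothelial (median 0.61) and 2 of 8 pericyte markers (median 0.34) were called higher in ICH. Of 6 smooth muscle markers 4 were tested and 2 were called higher (median 1.09). Over all genes tested 7.42% were called higher, and 0 of these markers were called lower. Every ICH library was above every sham library for 6 endothelial, 4 pericyte and 3 smooth muscle markers, beside 23.1% of all genes. Of the endothelial and pericyte markers, 2 and 1 had a negative log2 fold change. Summed endothelial markers were 90.8 to 136 FPKM in ICH+Laminaria, 79.2 to 97.2 FPKM in ICH and 54.5 to 70.7 FPKM in sham. Their part in the type IV values was not tested.

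Type VI collagen, which forms beaded filaments close to basement membranes, did not pass the test in either direction. Col6a1 averaged 9.45 ± 0.86 FPKM in ICH+Laminaria, 7.72 ± 1.5 FPKM in ICH and 8.62 ± 3.15 FPKM in sham, and Col6a2 averaged 1.89 ± 0.56 FPKM in ICH+Laminaria, 1.78 ± 0.39 FPKM in ICH and 1.42 ± 0.15 FPKM in sham. Their log2 fold changes of ICH over sham were −0.20 ± 0.28 and 0.28 ± 0.18. Col6a3, below the expression minimum, averaged 0.27 ± 0.06 FPKM in ICH+Laminaria, 0.53 ± 0.32 FPKM in ICH and 0.20 ± 0.05 FPKM in sham, its ICH libraries being all above its sham libraries. Col6a4, just under the minimum, had lower levels in every ICH library, 0.257 to 0.458 FPKM, than in every sham library, 0.465 to 0.905 FPKM. With edgeR's own count filter neither was called, Col6a3 at 1.35 ± 0.46 (adjusted p = 0.116) and Col6a4 at −1.02 ± 0.34 (adjusted p = 0.11).

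The FACIT collagens, which sit on the surface of other fibrils and do not form fibrils of their own, had 5 of 9 chains tested and 1 called. Col16a1 had 4.44, 3.70 and 7.26 FPKM in ICH+Laminaria, 4.24, 6.22 and 5.38 FPKM in ICH and 2.87, 2.49 and 2.71 FPKM in sham. Its ICH libraries were all above its sham libraries, which were close to each other, and the log2 fold change was 0.93 ± 0.16 (adjusted p = 0.0231). Col9a2, Col9a3 and Col12a1 also had every ICH library above every sham library and were not called, with log2 fold changes between 0.43 and 0.80 and adjusted p between 0.0586 and 0.137. Col20a1 overlapped between the groups.

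Type VIII collagen, a short-chain network former of vessels and of the corneal endothelium, had large and scattered values. Col8a1 had 0.185, 0.958 and 1.43 FPKM in ICH+Laminaria, 1.55, 0.648 and 0.987 FPKM in ICH and 0.294, 0.185 and 0.634 FPKM in sham. Col8a2 had 0.597, 2.32 and 3.26 FPKM in ICH+Laminaria, 3.06, 1.33 and 3.81 FPKM in ICH and 0.862, 0.459 and 1.83 FPKM in sham. The log2 fold changes of ICH over sham were 1.47 ± 0.52 for Col8a1 and 1.34 ± 0.58 for Col8a2, with adjusted p of 0.116 and 0.178, so neither was called. Beside them, transthyretin (Ttr), the main secreted product of the choroid plexus epithelium, had 53.1, 1707 and 1614 FPKM in ICH+Laminaria, 3541, 1307 and 1789 FPKM in ICH and 482, 64.8 and 892 FPKM in sham. Of 8 choroid plexus markers 7 were tested and 0 were called by edgeR in either direction, with a median log2 fold change of 1.75. At an unadjusted p under 0.05, 4 were higher, beside 17.2% of all genes tested. ICH+Laminaria library 1 and sham library 2, which had the lowest Ttr, also had the 2 lowest levels of Col8a1, Col8a2, Col9a3 and Pcolce among the 9 libraries. The same held for Lum, at 0.610 and 0.525 FPKM. These members are named because their values were seen to match, and the share of all genes that do so was not counted. The part of choroid plexus tissue in these values was not tested.

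**Figure D3:**
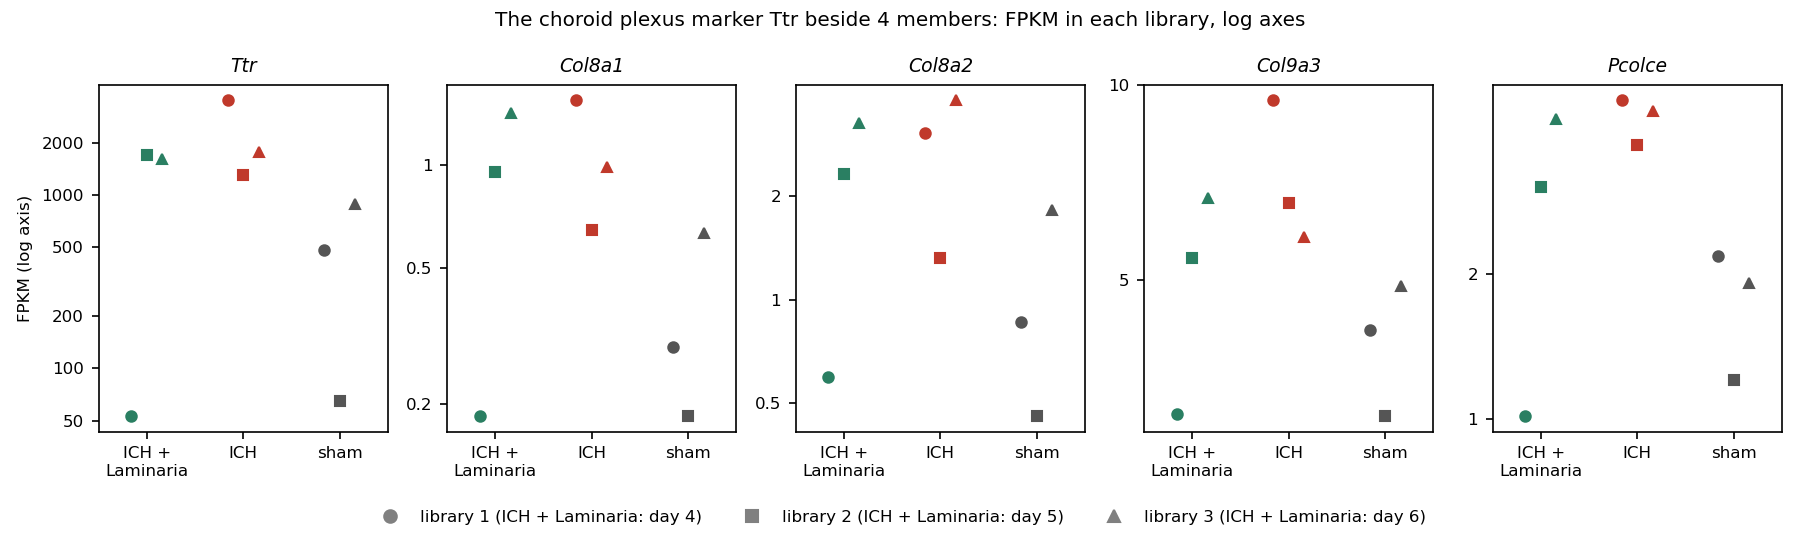
FPKM of the choroid plexus marker Ttr and of Col8a1, Col8a2, Col9a3 and Pcolce in each library, on log axes. ICH+Laminaria library 1 (Ttr 53.1 FPKM) and sham library 2 (Ttr 64.8 FPKM) are the lowest points of every panel.

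Among the noncollagenous members, fibronectin had a nearly constant sham level. Fn1 (chr1:71585520-71653175) had 12.6, 9.73 and 21.9 FPKM in ICH+Laminaria, 6.56, 22.4 and 16.3 FPKM in ICH and 3.93, 3.93 and 3.93 FPKM in sham. All ICH libraries were above the sham libraries, yet they differed by 3.42 times among themselves, and the log2 fold change was 1.9 ± 0.40 (adjusted p = 0.0356). Sparc, a collagen-binding glycoprotein that astrocytes and endothelial cells express, was by far the most abundant member, with 226, 240 and 370 FPKM in ICH+Laminaria, 258, 289 and 231 FPKM in ICH and 236, 174 and 191 FPKM in sham. ICH library 3 was below sham library 1, and Sparc was not called (0.33 ± 0.15, adjusted p = 0.19). It also dominates any sum: all members together came to 410 ± 122 FPKM in ICH+Laminaria, 406 ± 42.6 FPKM in ICH and 279 ± 34.5 FPKM in sham, and without Sparc to 132 ± 42.9 FPKM in ICH+Laminaria, 146 ± 26.2 FPKM in ICH and 78.9 ± 7.42 FPKM in sham (SD, n = 3 each). The ratio of the group means, ICH over sham, was 1.45 with Sparc and 1.85 without it.

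Fibrillin, the backbone of elastic microfibrils, lay just under the expression minimum. Fbn1 had 0.764, 0.724 and 1.09 FPKM in ICH+Laminaria, 0.637, 0.635 and 0.681 FPKM in ICH and 0.388, 0.299 and 0.245 FPKM in sham. The 3 groups did not overlap, and with edgeR's own count filter Fbn1 was called higher in ICH than in sham, at 0.99 ± 0.20 (adjusted p = 0.0355). Periostin (Postn), a matrix protein of healing wounds, was low and overlapped between groups, averaging 0.33 ± 0.10 FPKM in ICH+Laminaria, 0.27 ± 0.04 FPKM in ICH and 0.23 ± 0.04 FPKM in sham.

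The small leucine-rich proteoglycans bind collagen fibrils and set their diameter and spacing. All 3 had every ICH library above every sham library, beside 23.1% of all genes tested, and 1 was called. Bgn (chrX:73483602-73495933) had 3.49, 4.0 and 8.20 FPKM in ICH+Laminaria, 5.06, 6.86 and 7.17 FPKM in ICH and 3.18, 3.24 and 2.84 FPKM in sham. Its log2 fold change was 1.0 ± 0.15 (adjusted p = 0.0226), and its promoter, shown above, held 3 GC boxes within 34 bases of the start. Dcn had 1.61, 2.84 and 6.56 FPKM in ICH+Laminaria, 2.94, 4.48 and 4.50 FPKM in ICH and 2.43, 1.91 and 1.10 FPKM in sham, with a log2 fold change of 1.09 ± 0.31 that was not called (adjusted p = 0.0725). Lum had 0.610, 1.5 and 2.49 FPKM in ICH+Laminaria, 1.83, 1.99 and 3.03 FPKM in ICH and 1.12, 0.525 and 0.926 FPKM in sham, with a log2 fold change of 1.37 ± 0.35 that was not called (adjusted p = 0.0542). For Dcn and Lum the ICH+Laminaria library labelled day 4 lay within the range of sham.

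The lysyl oxidases, the copper enzymes that crosslink collagen and elastin, held the member with the largest fold change. Loxl2 (chr14:69609068-69695834), which also acts on type IV collagen of basement membranes, had 0.25, 0.329 and 1.33 FPKM in ICH+Laminaria, 0.482, 1.24 and 1.21 FPKM in ICH and 0.128, 0.090 and 0.073 FPKM in sham. The counts summed over the 3 libraries were 631 in ICH+Laminaria, 1204 in ICH and 123 in sham, so its sham level rests on few reads. With a sham mean of 0.097 FPKM, Loxl2 reached the expression minimum through its ICH level. The log2 fold change of ICH over sham was 3.26 ± 0.45 (adjusted p = 0.0221), and it ran between 3.09 and 3.59 when single libraries were left out. Loxl1, the family member tied to elastic fibers, had 1.43, 1.28 and 3.18 FPKM in ICH+Laminaria, 1.95, 2.17 and 3.36 FPKM in ICH and 0.870, 0.797 and 1.14 FPKM in sham. Its log2 fold change was 1.37 ± 0.27 (adjusted p = 0.031). Loxl3 had 1.82, 2.02 and 2.96 FPKM in ICH+Laminaria, 1.71, 2.78 and 2.43 FPKM in ICH and 1.35, 1.09 and 1.24 FPKM in sham, and at 0.87 ± 0.22 it missed the threshold with an adjusted p of 0.0501.

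Lox and Loxl4 were below the expression minimum. Lox averaged 0.38 ± 0.33 FPKM in ICH+Laminaria, 0.49 ± 0.18 FPKM in ICH and 0.07 ± 0.03 FPKM in sham, and edgeR's own count filter called it higher in ICH than in sham at 2.71 ± 0.46 (adjusted p = 0.0265). Loxl4 summed to 46 counts in ICH+Laminaria, 174 in ICH and 34 in sham, and it was not called at 2.24 ± 0.57 (adjusted p = 0.0565). All 5 lysyl oxidase genes thus had every ICH library above every sham library. The same held for 23.1% of all genes tested and for 17.0% of the genes that edgeR's own count filter kept below the minimum.

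Serpinh1 (Hsp47), the chaperone that binds the procollagen helix in the endoplasmic reticulum, had 15.6, 14.5 and 23.4 FPKM in ICH+Laminaria, 17.9, 27.8 and 28.1 FPKM in ICH and 14.6, 8.52 and 18.6 FPKM in sham. ICH library 1 lay below sham library 3, and the gene was not called (0.78 ± 0.31, adjusted p = 0.148). Pcolce, which speeds the removal of the procollagen C-propeptide, had 1.02, 3.03 and 4.19 FPKM in ICH+Laminaria, 4.58, 3.69 and 4.34 FPKM in ICH and 2.17, 1.21 and 1.91 FPKM in sham. ICH and sham did not overlap, and the log2 fold change was 1.21 ± 0.24 (adjusted p = 0.0307). Its lowest libraries, ICH+Laminaria library 1 and sham library 2, were those with the lowest Ttr.

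**Figure D4:**
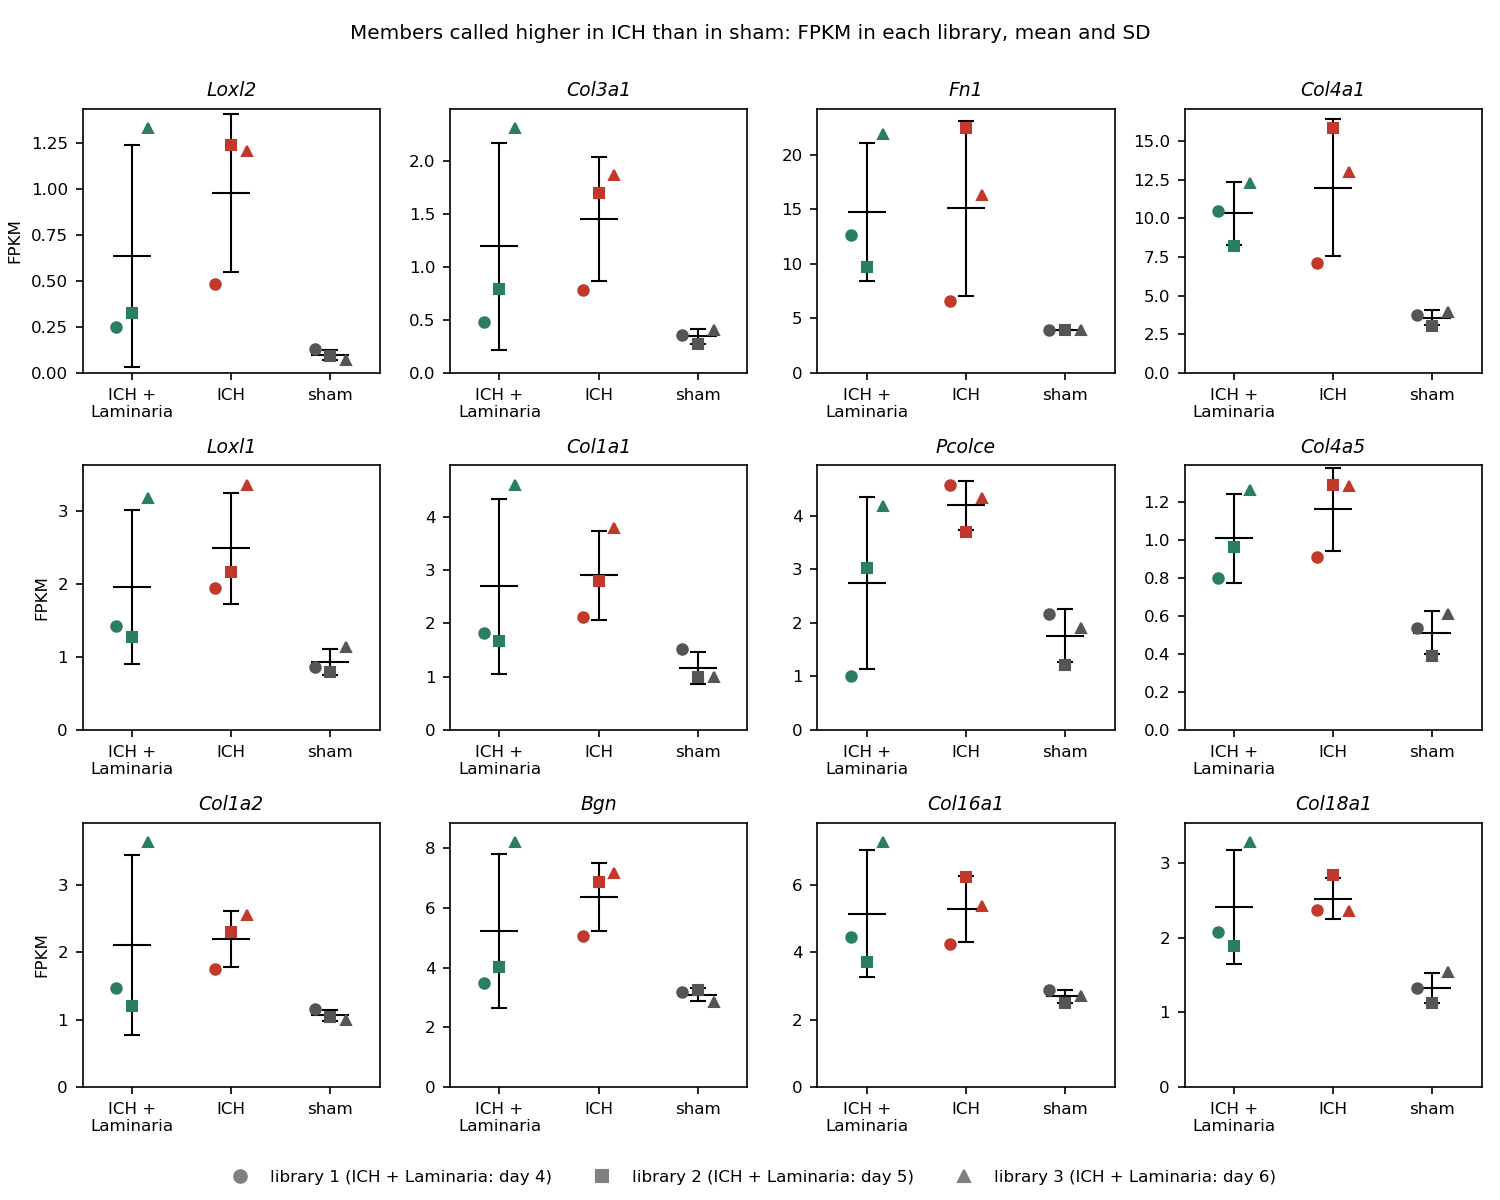
FPKM of the 12 members called higher in ICH than in sham, in each library, with the mean and SD of each group of 3. In each panel all ICH points are above all sham points, and the ICH+Laminaria library labelled day 6 (green triangle) is the highest of its group.

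The genes that modify, fold and export collagen were followed as a list of their own. Of 27 such genes 24 were tested, 5 were called higher in ICH and 0 lower, with a median log2 fold change of 0.25. For this and the 2 lists below, the shares over all genes tested were 7.42% called higher and 3.16% called lower. The largest changes were those of P4ha3, a prolyl 4-hydroxylase subunit, with 1.78 ± 0.27 (adjusted p = 0.0226), Crtap, part of the prolyl 3-hydroxylation complex, with 1.14 ± 0.31 (not called, adjusted p = 0.0602), and Fkbp10, a collagen chaperone, with 1.11 ± 0.18 (adjusted p = 0.0226). P4ha3 had 4.16, 3.76 and 7.75 FPKM in ICH+Laminaria, 5.38, 8.8 and 7.83 FPKM in ICH and 2.19, 1.45 and 2.58 FPKM in sham. Of the 24 genes 5 had a negative log2 fold change, 2 of them at an unadjusted p under 0.05, beside 2020 of all 16414 genes. The 5 were Adamts3 at −0.68 ± 0.24, P4ha2 at −0.52 ± 0.17, Adamts2 at −0.50 ± 0.31, P4ha1 at −0.31 ± 0.17 and Cthrc1 at −0.14 ± 0.23. P4ha1 and P4ha2 are also prolyl 4-hydroxylase subunits, and 0 of the 5 were called. Collagen receptors had 6 of 10 genes tested and 4 called higher in ICH, with a median of 0.71. Lair1, an inhibitory collagen receptor of leukocytes, changed by 1.16 ± 0.26 (adjusted p = 0.0408), and Ddr2, a receptor tyrosine kinase for fibrillar collagen, by 1.05 ± 0.17 (adjusted p = 0.0226), while the endocytic receptor Mrc2 was not called at 0.73 ± 0.23 (adjusted p = 0.0877). Other matrix glycoproteins had 18 of 22 genes tested and 8 called higher, with a median of 0.88, led by thrombospondin Thbs1 at 4.23 ± 0.65, osteopontin Spp1 at 3.91 ± 0.64 and Tgfbi at 3.04 ± 0.28. Spp1, a gene of activated microglia and macrophages, had 270, 175 and 465 FPKM in ICH+Laminaria, 238, 699 and 340 FPKM in ICH and 13.3, 20.1 and 49.4 FPKM in sham.

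ICH+Laminaria was next set against ICH. Of the 58 members 37 were tested, and by edgeR 0 were called higher and 0 lower, where 0.018% of all 16654 genes tested were called in either direction. At an unadjusted p under 0.05 the count was also 0, beside 3.36% of all genes, and DESeq2 called 0 members as well. The log2 fold change was negative for 25 and positive for 12 of the 37, with a median of −0.08. The groups failed to overlap for 1 member, Fbn1, which was higher in each ICH+Laminaria library, beside 9.02% of all genes in either direction. Its log2 fold change of 0.39 ± 0.18 was not called. The lowest values were those of Loxl2 (−0.65 ± 0.69), Pcolce (−0.63 ± 0.45) and Lum (−0.59 ± 0.49). Serpinh1 had the smallest p among the members below 0, with −0.47 ± 0.23 (unadjusted p = 0.0865, adjusted p = 0.951).

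The ICH+Laminaria group was split by its libraries. Over the 35 members tested in ICH against sham, the library labelled day 6 was the highest of its group for 33 and the highest of all 9 libraries for 20. Relative to the sham mean, the median member stood at 0.36, 0.42 and 1.3 on the log2 scale in the libraries labelled day 4, 5 and 6, and at 0.70, 1.07 and 1.0 in ICH libraries 1, 2 and 3. ICH library 1 was the lowest of its group for 22 of 35. The pattern was not particular to the members. Microglia and macrophage markers summed to 261, 228 and 459 FPKM in the libraries labelled day 4, 5 and 6. In ICH libraries 1, 2 and 3 they summed to 269, 536 and 507 FPKM. Neuron markers ran the other way, at 537, 563 and 419 FPKM and at 578, 432 and 412 FPKM. Choroid plexus markers, a sum held mostly by Ttr, came to 58.6, 1738 and 1648 FPKM and to 3606, 1327 and 1832 FPKM. Ttr and Sostdc1 were highest of the ICH+Laminaria group in the library labelled day 5. Kl, Folr1, Kcnj13, Clic6, Otx2 and Prlr were highest of that group in the library labelled day 6. Each of these markers was highest of the ICH group in ICH library 1. What lies behind these shifts was not tested. Without the library labelled day 6 the median log2 fold change of ICH+Laminaria over ICH was −0.36, 33 of 37 members were negative, beside 51.5% of all genes, 9 were lower at an unadjusted p under 0.05, beside 5.59% of all genes, and 0 were called. That library was the highest of its group for most members, so leaving it out was bound to lower their values. These shares are therefore no test of Laminaria. Without the library labelled day 4 the median was 0.05 and without the library labelled day 5 0.07, so the direction of the list turned with the library left out. Day, treatment and single-library variation cannot be told apart here.

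**Figure D5:**
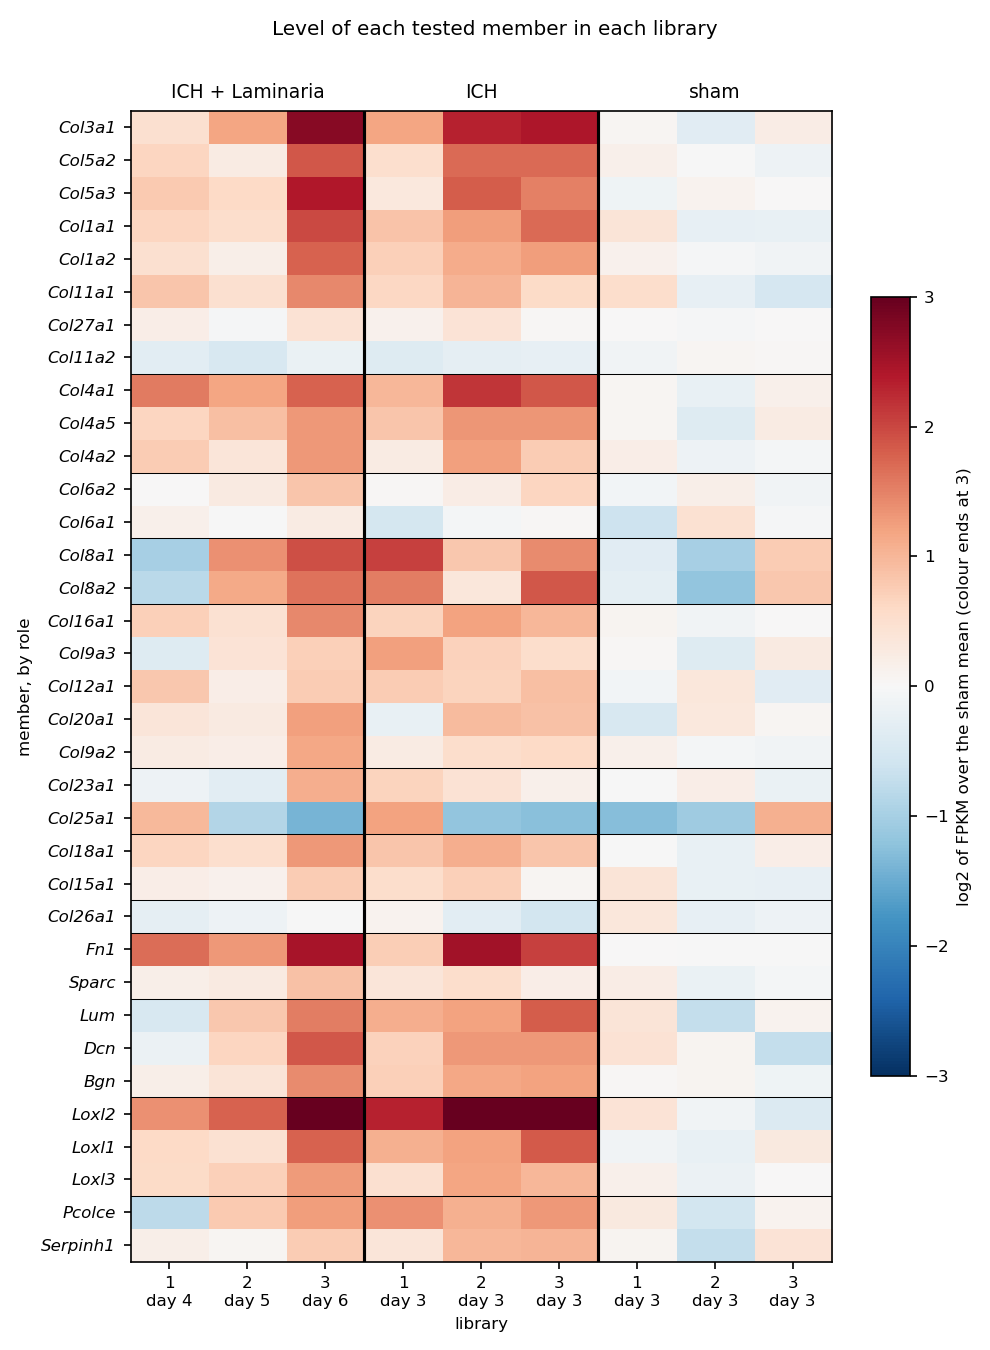
Log2 of FPKM over the sham mean for the 35 tested members (rows, by role) in each of the 9 libraries (columns, ICH+Laminaria, ICH and sham). The ICH+Laminaria column labelled day 6 and ICH columns 2 and 3 are the reddest, with medians of 1.3, 1.07 and 1.0, and the colour scale ends at 3, which Loxl2 passes.

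ICH+Laminaria was last set against sham, using the same sham libraries as before. Of the 58 members 36 were tested, and by edgeR 0 were called in either direction, where 0.0183% of all 16405 genes were called. At an unadjusted p under 0.05, 14 of the 36 were higher and 1 lower, beside 11.2% of all genes higher and 1107 of all 16405 lower. For 16 of the 36 every ICH+Laminaria library lay above every sham library, beside 17.8% of all genes. The median log2 fold change was 0.78, and without the library labelled day 6 it was 0.27, with Fn1 called higher there. The smallest p belonged to Col4a1, at 1.47 ± 0.17 (unadjusted p = 5.19e-05, adjusted p = 0.071), followed by Fn1 at 1.84 ± 0.27 and Fbn1 at 1.40 ± 0.24, both with an adjusted p of 0.0917. Col3a1 stood at 1.71 ± 0.55 and Col11a2 at −0.38 ± 0.10, with adjusted p of 0.189 and 0.15. DESeq2 called 11 members higher and 1 lower in this comparison. Over all genes it called 6.12% higher, and 1326 genes in either direction. For ICH against sham it called 21 members higher and 1 lower, Col11a2. Over all genes it called 12.5% higher there, and 3547 genes in either direction.

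Of the 58 members, 23 were too low to be tested in ICH against sham with the expression minimum. Their group means ran down to 0.02 FPKM, and edgeR's own count filter kept 22 of the 23. Of these 22, 10 had every ICH library above every sham library, beside 17.0% of all 4879 genes that the same filter kept below the minimum, and 2, Col6a4 and Col24a1, had every ICH library below, beside 4.53%. Of the 22 fitted, 19 had a positive log2 fold change and 3 were called higher, namely Lox, Col4a6 and Fbn1. Col2a1, the cartilage fibrillar chain, averaged 0.35 ± 0.11 FPKM in ICH+Laminaria, 0.38 ± 0.11 FPKM in ICH and 0.14 ± 0.08 FPKM in sham and was not called (adjusted p = 0.163). Col10a1, the chain of hypertrophic cartilage, had 14 counts in all in ICH+Laminaria, 20 in ICH and 23 in sham, too few for any comparison, since a single fragment appeared to add 3.75 to 3.80 counts in this table.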

How the data were processed

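Total RNA libraries from 9 brain samples were sequenced by the authors. The submitters' processing notes named HISAT2 2.0.4, StringTie 1.3.4, cutadapt 1.9, FastQC 0.10.1 and a rat build, although the deposited gene identifiers and coordinates were those of mouse GRCm38. Not given in the sources used here were the counting step and the annotation release. Each gene had read counts and FPKM values in the deposited table. Over 12521 genes with at least 200 counts in every library, each deposited FPKM equalled counts over depth and 1 gene length within 2%.

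Deposited counts were tested with edgeR 4.0.16 (quasi-likelihood, TMM scaling, genes averaging 0.5 FPKM or more in the 6 libraries of a comparison, Benjamini-Hochberg adjustment), after testing on simulated data. DESeq2 1.42.0 and limma 3.58.1 (R 4.3.3) and other filters, scalings and subsets served as alternatives. Ratios were tested by exact permutation. Groups came from the labels. All members and lists were chosen with earlier results of these data known. Values per library were set for members called, the 5 with the highest mean FPKM and tested noncollagen members. Col8a1, Col8a2, Col9a3, Fbn1 and Col25a1 were added after their values were seen.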

Additional observations from a re-analysis of the deposited data

How the results depend on the processing

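For ICH against sham the count of 12 members called higher stayed within 1.5 times under DESeq2 size factors, other filters, limma on FPKM or TPM and counts divided by their step. Single calls did change: Fn1 and Col4a5 lost theirs with limma, and Col4a5 with no filter. The count was 21 with DESeq2 and 7 with all 9 libraries in 1 fit, which lost Bgn, Col1a1, Col1a2, Col3a1, Loxl1 and Pcolce, and 0 to 16 when single libraries were left out. With the replicate block it was 5, 4 of them among the 12. Replicate numbers are not known to pair the libraries. Correlations of same-numbered deviations were 0.12, −0.04 and 0.10, and those of differently numbered ones ran from −0.152 to 0.0705. With 3 libraries a group these values cannot settle pairing, so this block removes degrees of freedom without a known pairing. Members called lower numbered 1, Col11a2, with DESeq2 and 1 with limma on TPM, against 0. On TPM, calls over all genes were 46.8% higher, against 70.1% with edgeR on counts. The other splits were 83.0% with the replicate block, 81.1% and 80.8% with limma on FPKM and 57.8% with DESeq2. For ICH+Laminaria against sham, members called higher numbered 11 with DESeq2, 2 with the replicate block and 0 to 1 with single libraries left out, and members called lower numbered 1 with DESeq2, against 0 in edgeR. Against ICH, ICH+Laminaria had 0 calls among the members under every alternative run. Leaving out Sparc moved the summed ratio of ICH over sham to 1.85. Signs turned for Col6a1 (−0.427 to 0.088 with single libraries left out) and for Col25a1, which was −0.002 with filterByExpr, −0.003 with no filter, −0.10 on TPM, −0.059 with the replicate block and −1.26 to 1.20 with single libraries left out. The causes were not tested. Low members rest on few fragments, and 3 libraries a group limit every test.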

Other observations

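Col25a1, a transmembrane collagen of neurons, had 4.20, 1.16 and 0.801 FPKM in ICH+Laminaria, 4.88, 0.927 and 0.889 FPKM in ICH and 0.880, 1.01 and 4.47 FPKM in sham. It was high in 1 library of each group, and its log2 fold change of ICH over sham was 0.04 ± 0.89. The highest library was 5.24 times the lowest within ICH+Laminaria, 5.49 times within ICH and 5.08 times within sham. For Col23a1, the other transmembrane chain tested, it was 2.66 times within ICH+Laminaria, 1.43 times within ICH and 1.31 times within sham.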
